A study of Caenorhabditis elegans with 4 samples.

Results

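The SMC-6 peaks described here are the 548 peaks that a peak list made for the whole series placed on chromosome III of Caenorhabditis elegans, out of 3392 in that list and 3380 on the 6 nuclear chromosomes. Members were chosen by chromosome name alone, so neither score nor width entered the choice. Beside them stand the 245 peaks of chromosome III in the list of ChIP replicate 1 and the 272 in that of ChIP replicate 2. The samples were 2 SMC-6 ChIP libraries and 2 input libraries, all from mixed-stage embryos of the wild-type N2 strain, of both sexes, grown at 20 degrees. SMC-6 was precipitated with a rabbit polyclonal antibody purified by affinity, and input is DNA set aside before the antibody was added. Whole embryos were pooled, so a peak cannot be assigned to a cell type or a stage. Whether the replicates are separate cultures is not stated in the labels, so differences between them may be technical only.

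SMC-6 is a subunit of the SMC-5/6 complex, a ring-shaped relative of cohesin and condensin. Cohesin holds sister chromatids together and condensin compacts chromosomes, while SMC-5/6 is known for its part in repair by homologous recombination and in the removal of joined DNA molecules between sister chromatids. C. elegans chromosomes are holocentric, with kinetochores along their length. Each autosome has a gene-rich centre with little meiotic recombination, flanked by arms with more repeats, more recombination and more histone H3 lysine 9 methylation.

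Chromosome III carried 39.8 series-wide peaks per Mb, against 32.7 on the other 5 nuclear chromosomes together. In replicate 1 it had 17.8 peaks per Mb and the other chromosomes 21.0, so that III was the lowest of the 6. In replicate 2 it had 19.7 peaks per Mb and the others 13.4, and III was the highest of the 6. The 2 libraries thus placed III at opposite ends of the order, although their own densities on III were close, at 18.8 ± 1.39 peaks per Mb (SD, n = 2 libraries). The other chromosomes together stood at 17.2 ± 5.44 peaks per Mb. Series-wide peaks covered 1.38% of III, those of replicate 1 0.743% and those of replicate 2 1.03%. Differences between chromosomes were not tested: the replicates are 2 libraries, and peaks of 1 genome are not replicates.

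Few of the 548 peaks were called in both libraries. By an overlap of at least 1 bp, 87 (15.9%, 95% interval 12.9 to 19.2%) were overlapped by a peak of each replicate list, where 16.9% of all nuclear series-wide peaks were. Another 88 (16.1%, 13.1 to 19.4%) were overlapped by replicate 1 only, against 24.7% (23.1 to 26.3%) on the other chromosomes and 23.3% over all 6. A further 171 (31.2%, 27.3 to 35.3%) were overlapped by replicate 2 only, against 22.4% (20.9 to 24.0%) on the other chromosomes and 23.8% over all 6. The remaining 202 (36.9%, 32.8 to 41.1%) lay over no replicate peak, where 36.0% of all nuclear peaks did. Chromosome III therefore held a smaller share of peaks with replicate 1 alone and a larger share with replicate 2 alone, and these intervals do not overlap those of the other chromosomes. The intervals are exact binomial ones, treat peaks as independent and cover counting error only. Absence from a list means that no peak was called, not that SMC-6 was absent from the site.

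The 4 classes of peaks differed in size. Peaks over both replicate lists had a median score of 17.4 and were 469 bp wide at the median. The score is the authors' own value from the peak caller, and no header gives its scale. For peaks over replicate 2 only the median score was 13.6 and the median width 294 bp. Replicate 1 only gave a median of 5.41 in score and 282 bp in width. Over neither list the median peak scored 4.57 and spanned 199 bp. No peak with replicate 1 alone scored above 16.2, while peaks with replicate 2 alone reached 134. The classes were much alike on the other chromosomes, with median scores of 18.75, 13.1, 5.545 and 4.83 in the same order. There peaks with replicate 1 alone reached 23.9 and those with replicate 2 alone 164. A wider peak meets the overlap rule more easily, and width and score were not separated here.

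The series-wide score on III had a higher rank correlation with replicate 2 than with replicate 1. Across the 258 peaks with a replicate 2 partner, series-wide and replicate 2 scores had a Spearman's rho of 0.73. Across the 175 peaks with a replicate 1 partner the rho with replicate 1 scores was 0.30. On the other chromosomes rho was 0.72 with replicate 2 and 0.29 with replicate 1, close to the values on III. These are descriptions across peaks, which are not independent, and the lists may share reads. Among the 50 highest-scoring peaks of III, 26 were overlapped by both lists, 24 by replicate 2 only and 0 by replicate 1 only. The lowest of these 50 scored 37.83. On the other chromosomes no peak with replicate 1 alone scored above 23.94, so its absence at such scores was not particular to III. The split between both lists and replicate 2 only was not counted there at this score, so it cannot be called particular to III.

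**Figure D1:**
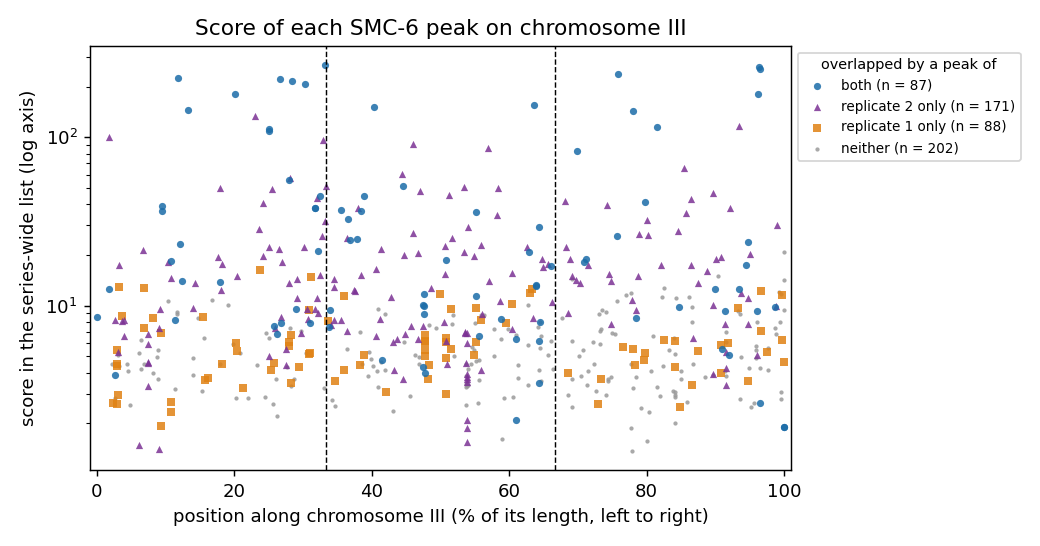
Score of each of the 548 series-wide peaks (log axis) against its position as a percentage of the length of chromosome III, with colour and marker for the replicate lists that overlap it and dashed lines between left arm, centre and right arm. The 10 highest points, between 179.61 and 268.01, all belong to both lists and lie outside the centre as drawn. Peaks of replicate 1 only stay at or below 16.2.

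To set the arms against the centre, the chromosome was cut into 3 parts of equal length, 4.59 Mb each, called left arm, centre and right arm here. The left arm ended at position 4594577 and the right arm began at 9189155. These are geometric borders and not the recombination borders of the chromosome. The series-wide list had 164 peaks in the left arm, 186 in the right arm and 198 in the centre. In peaks per Mb these came to 35.7, 40.5 and 43.1. Arms together over centre gave a ratio of 0.884.

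The 2 libraries differed in this pattern. Replicate 1 was nearly even, with 86 peaks in the left arm, 80 in the right arm and 79 in the centre, a ratio of arms to centre of 1.05. Replicate 2 had 89 in the left arm, 75 in the right arm and 108 in the centre, a ratio of 0.759. This difference was not particular to III, as replicate 1 had the higher ratio on each of the other chromosomes too. On II the ratios were 2.01 and 0.720, and on V 1.05 and 0.714. On III the ratio averaged 0.905 ± 0.206 (SD, n = 2 libraries), so neither an excess nor a deficit in the arms exceeded the spread between libraries. The left arm varied least, with 19.0 ± 0.462 peaks per Mb, against 16.9 ± 0.770 in the right arm and 20.4 ± 4.46 in the centre. Left over right arm gave 1.08 in replicate 1 and 1.19 in replicate 2, while the series-wide list gave 0.882. The series-wide list thus held more peaks in the right arm than in the left, and both replicate lists the other way round.

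Peaks without replicate support were most frequent in the right arm. There 91 of 186 (48.9%, 41.5 to 56.3%) lay over neither replicate list, against 45 of 164 (27.4%, 20.8 to 34.9%) in the left arm and 66 of 198 (33.3%, 26.8 to 40.4%) in the centre. The interval of the right arm lies above those of the left arm and the centre, and the difference was not tested. Over all nuclear series-wide peaks this share was 36.0%. The parts of the other chromosomes were not compared in this way. Peaks over both lists made up 13.4% (8.89 to 19.2%) of the right arm, 17.7% (12.2 to 24.4%) of the left arm and 16.7% (11.8 to 22.6%) of the centre, with intervals that overlap. Median scores were close, at 7.52 in the left arm, 6.79 in the right arm and 6.92 in the centre.

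At finer scale the density varied along the chromosome. In windows of 500 kb the series-wide count ran from 10 to 35 with a median of 19, over 27 full windows. The lowest window spanned positions 2500001 to 3000000, with 5 peaks in replicate 1 and 3 in replicate 2. The highest spanned 7000001 to 7500000, near the middle of the chromosome, with 35 series-wide peaks. In that window replicate 1 had 6 peaks and replicate 2 had 23, which was the widest difference between the libraries in any window. The neighbouring window at 6500001 to 7000000 had 18 peaks in replicate 1 and 11 in replicate 2, and the one before it, at 6000001 to 6500000, had 2 and 12. The libraries were closer in the left arm, as in the windows at 3500001 to 4000000 (15 in replicate 1 and 16 in replicate 2) and 4000001 to 4500000 (14 and 17). Near the right end, at 13000001 to 13500000, replicate 1 had its highest count, 19, and replicate 2 had 12. Over the 27 windows the replicate counts had a Spearman's rho of 0.58 and a Pearson's r of 0.43, as a description.

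**Figure D2:**
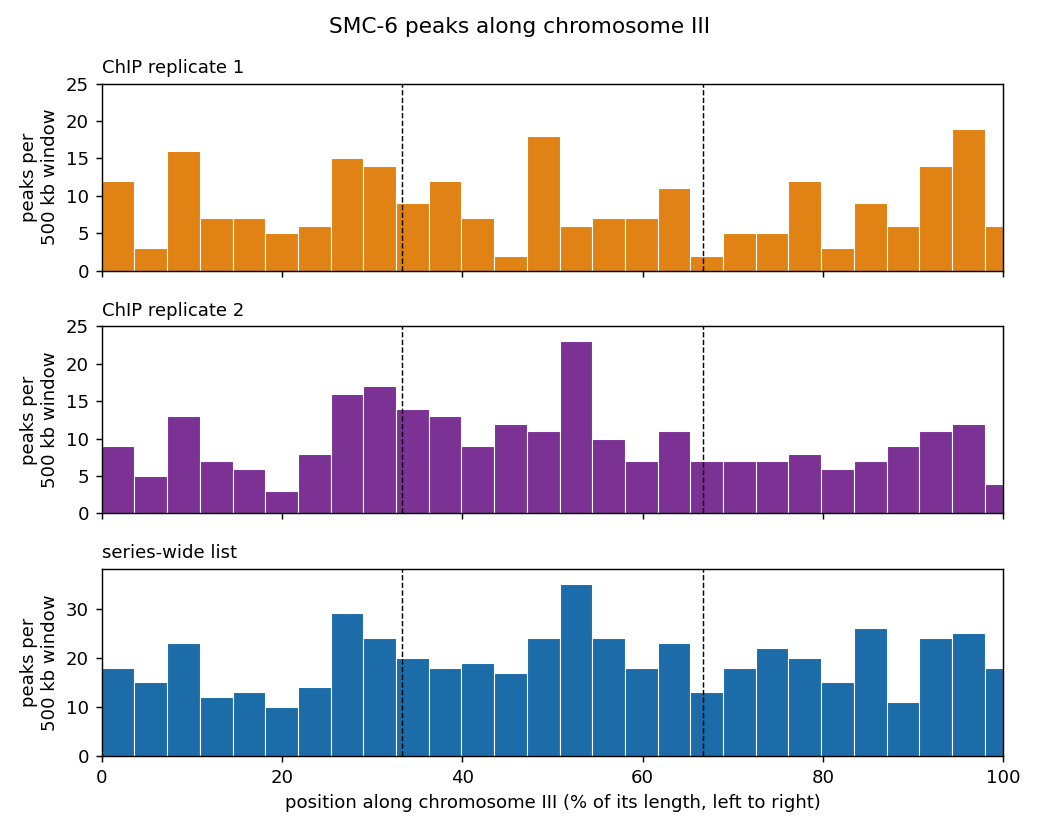
Number of SMC-6 peaks in consecutive 500 kb windows of chromosome III (the last window is shorter), one panel per list, with position as a percentage of the chromosome's length and dashed lines between left arm, centre and right arm. The series-wide maximum of 35 just right of the middle stands above 23 peaks in replicate 2 and 6 in replicate 1.

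With the chromosome cut into 3 equal parts, the 10 highest-scoring peaks of III lay in the arms. They scored between 179.61 and 268.01 and were between 498 and 966 bp wide, above the upper quartile of width on III, 371 bp, and below 1 kb. Of these, 6 lay in the left arm, 4 in the right arm and 0 in the centre, and all 10 were overlapped by both replicate lists. This split depends on the borders and on how many peaks are taken. Among the 50 highest, 23 lay in the left arm, 15 in the right arm and 12 in the centre. Among the 100 highest, 35 lay in the left arm, 30 in the right arm and 35 in the centre. With the left border at 4 Mb, the peaks at 4170880 and 4568395 fall in the centre. The highest lay at 4568395 to 4568933, close to the border of the left arm. It scored 268.01 in the series-wide list, and replicate 1 gave 1407 there and replicate 2 gave 3100. Before it the left arm held 3 more of the 10 at shorter spacing, with 251891, 253786 and 396952 bp between neighbours. These were the peaks at 3664107 to 3664604 (score 222), 3916495 to 3917094 (score 216) and 4170880 to 4171443 (score 208). The first of them had the highest score of III in replicate 2, 3173, and scored 1577 in replicate 1. Further left stood peaks at 1618709 to 1619357 (score 224) and 2768542 to 2769051 (score 180). The peak at 2768542 was the least alike between libraries, with scores of 104 in replicate 1, where it ranked 104 on III, and 1769 in replicate 2, where it ranked 18.

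In the right arm 3 of the 10 lay together within 28001 bp near the chromosome's end. They were the peaks at 13268615 to 13269121 (score 180), 13292462 to 13293427 (score 260) and 13296018 to 13296615 (score 255). Their replicate 1 scores were 672, 1057 and 704 in that order, and their replicate 2 scores 2157, 3100 and 3100. The fourth peak of the right arm, at 10460926 to 10461462 (score 238), had no other peak within 20 kb and scored 2908 in replicate 1 and 3100 in replicate 2. It ranked second on III in replicate 1 and was tied for second in replicate 2. In replicate 2, 6 peaks of III scored exactly 3100 and 7 scored 3100 or more. Equal scores there need not mean equal signal, and whether 3100 marks a limit of the score was not tested. In the centre the highest peak lay at 8767765 to 8768188 with a score of 155, 11th on the chromosome, and it scored 137 in replicate 1 and 1584 in replicate 2. Among the 10 highest, 3 had a neighbouring peak within 10 kb, and 0 belonged to a dense run as defined below.

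The 10 widest peaks shared no member with the 10 highest. They spanned 1440 to 5501 bp with scores of 8.86 to 44.9, and 4 lay in the left arm, 0 in the right arm and 6 in the centre. The widest, at 5353036 to 5358536 in the centre, was called at nearly the same length in replicate 1, 5395 bp with a score of 3100, and as 2 peaks in replicate 2, the longer one 4331 bp with a score of 3062. The next 3 in order of width had a replicate 2 peak and no replicate 1 peak. They lay at 2497052 to 2501751 (4700 bp, replicate 2 score 3100), 7444326 to 7448094 (3769 bp, score 2504 for the longest replicate 2 peak there) and 3334282 to 3337019 (2738 bp, replicate 2 score 2865). At these 3 sites replicate 2 scored 2504 to 3100, within the range of its scores at the 10 highest-scoring sites (1769 to 3173), while the libraries disagreed on the call. A pair at 1299648 to 1301087 and 1301270 to 1303024 in the left arm lay 182 bp apart. Replicate 2 had a 2999 bp peak with a score of 3100 over both of them, and a second peak of 386 bp with a score of 784 over the first. Replicate 1 also overlapped both, with a 1760 bp peak (score 374) over the second. Over the first it had 2 peaks, the longer one 835 bp with a score of 106.

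Some other wide peaks scored higher in replicate 1, although replicate 2 scores on III ran higher in general, with a median of 141 against 92.5. The peak at 8862106 to 8863877 scored 1214 in replicate 1 (rank 6 on III), against 197 in replicate 2 (rank 105). A 6036 bp peak at 6566949 to 6572984, the third highest of III in replicate 1 with a score of 2230, overlapped 4 peaks of the series-wide list, 2 of them among the 10 widest. The longest replicate 2 peaks over those 2 scored 134 and 225. The peak at 7594603 to 7596348 was called in both lists. It scored 469 in replicate 1, where it ranked 24 on III, and 1144 in replicate 2, where it ranked 30.

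Peaks of 1 kb or more were few on III. The series-wide list had 13 (2.37%, 1.27 to 4.02%), where 4.50% of all nuclear peaks and 4.91% (4.14 to 5.77%) of those on the other chromosomes were that wide. Replicate 1 had 10 of 245 (4.08%, 1.97 to 7.38%) against 8.96% (7.68 to 10.4%) on the other chromosomes and 8.38% over all 6. Replicate 2 had 15 of 272 (5.51%, 3.12 to 8.93%) against 11.3% (9.57 to 13.3%) and 10.2% over all 6. In each list the share on III was the lowest of the 6 chromosomes, and the difference was not tested. Of the 13, 5 lay in the left arm, 0 in the right arm and 8 in the centre. Replicate 1 had 3 in the left arm, 2 in the right arm and 5 in the centre. Replicate 2 had 4 in the left arm, 0 in the right arm and 11 in the centre. The median width on III did not stand apart, at 266 bp for series-wide peaks, against 266 bp on the other chromosomes. Replicate 1 peaks of III had 299 bp against 298 bp elsewhere, and replicate 2 peaks 436 bp against 449 bp.

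**Figure D3:**
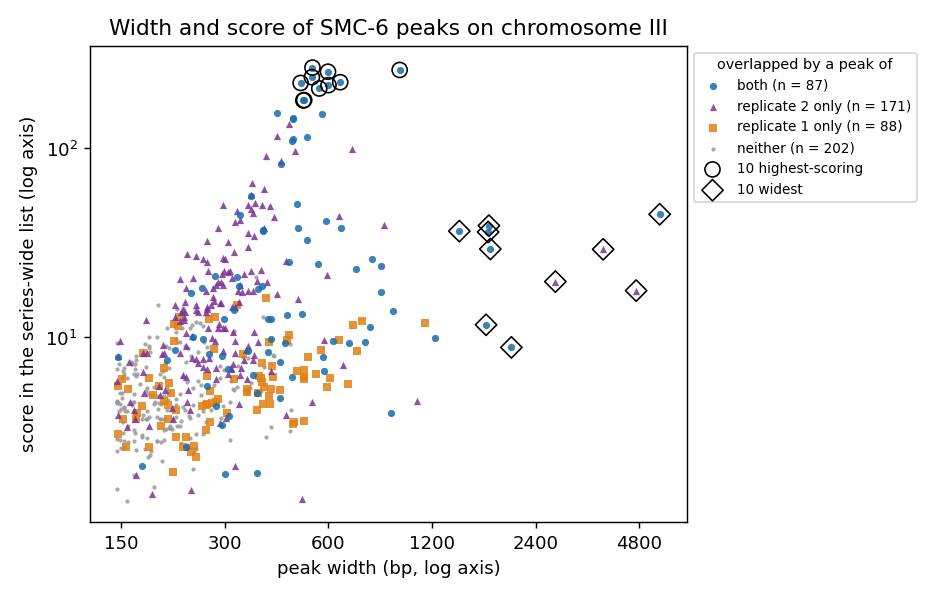
Width against score (both log axes) of the 548 series-wide peaks of chromosome III, with colour and marker for the replicate lists that overlap each peak. The 10 highest-scoring peaks (circles) are 498 to 966 bp wide, and the 10 widest (diamonds) are 1440 bp or more with scores of at most 44.87.

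Over all 548 peaks wider ones scored higher, with a Spearman's rho of 0.53 as a description. Within the replicate 1 list of III rho was 0.67, and within that of replicate 2 it was 0.76. The 10 widest peaks scored above the median of III, 7.01, but below the 10 highest, as the plot of width against score shows.

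Between the replicate lists themselves, 86 of the 245 replicate 1 peaks of III (35.1%, 29.1 to 41.4%) were overlapped by a replicate 2 peak, where 28.5% of all nuclear replicate 1 peaks were. Of the 272 replicate 2 peaks 87 (32.0%, 26.5 to 37.9%) were overlapped by replicate 1, where 38.8% of all were. With 1 partner per peak this gave 81 pairs, 28 in the left arm, 25 in the right arm and 28 in the centre. The middles of paired peaks lay a median of 36.5 bp apart, with an upper quartile of 75.5 bp. The replicate 2 peak was the wider one in 66 pairs and the replicate 1 peak in 15. The paired replicate 2 peaks had a median of 573 bp and the paired replicate 1 peaks 394 bp. Scores of paired peaks had a Spearman's rho of 0.46 and a Pearson's r of 0.58 across the 81 pairs, as a description.

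The series-wide list held 252 of the 272 replicate 2 peaks of III (92.6%, 88.9 to 95.5%), where 92.9% of all nuclear replicate 2 peaks were held. It held 176 of the 245 replicate 1 peaks (71.8%, 65.8 to 77.4%), where 65.0% of all were. The 69 replicate 1 peaks it left out had a median width of 199 bp and a median score of 63.5, but reached a score of 297. That highest one, at 12143821 to 12143996, was also called in replicate 2, with a score of 116. The series-wide list held 80 of the 81 pairs, and this pair was the exception. The 20 replicate 2 peaks left out had a median width of 192 bp and a highest score of 125.

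Peaks without a partner included high scores in both lists. In replicate 1 the highest lay near the right end of the chromosome at 13753615 to 13754653, 1039 bp wide, with a score of 951. Its series-wide counterpart scored 11.6, on a scale not known to be the same. The next replicate 1 peaks were at 12865269 to 12866218 (score 565) and 13448158 to 13448565 (score 535), also in the right arm. In replicate 2 the highest 3 without a partner were the wide peaks named above, with scores of 2504 to 3100. Replicate 2 had 59 unpartnered peaks in the left arm, 50 in the right arm and 76 in the centre. Replicate 1 had 57, 52 and 50 in the same order.

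**Figure D4:**
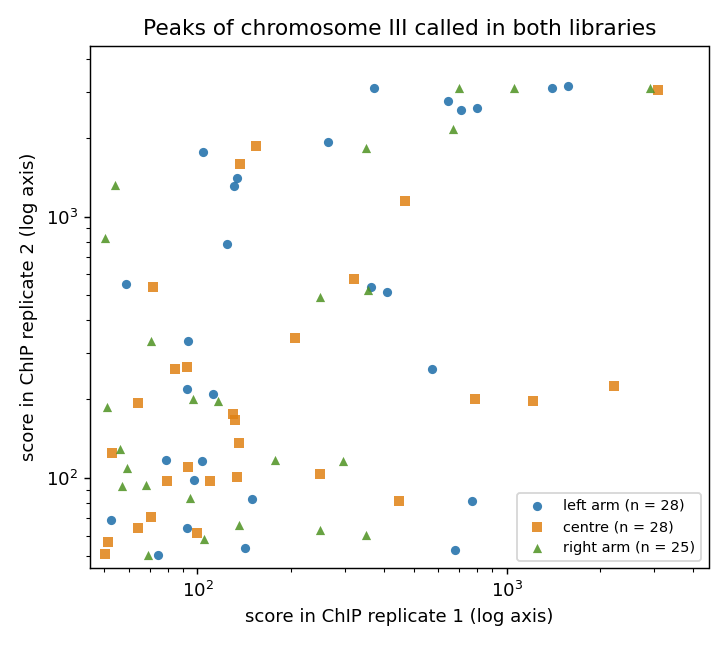
Scores of the 81 pairs of overlapping peaks of chromosome III in ChIP replicate 1 and ChIP replicate 2 (both log axes), with colour and marker for the left arm, centre and right arm. Points scatter widely around a rising trend (Spearman's rho 0.46), and pairs at 3100 or above in replicate 2 cover replicate 1 scores of 373.59 to 2907.52. Several of these pairs tie at exactly 3100 in replicate 2.

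Neighbouring series-wide peaks were separated by a median of 13001 bp, with quartiles of 2332 and 33996 bp. Of the 547 gaps, 57 (10.4%) were 500 bp or shorter and 23 were 100 kb or longer. The median gap was 24758 bp in replicate 1 and 26267 bp in replicate 2. A neighbour within 10 kb was present for 366 of the 548 peaks (66.8%, 62.7 to 70.7%), where 63.9% of all nuclear peaks had one. In replicate 1 this was so for 141 of 245 (57.6%, 51.1 to 63.8%), against 60.1% of all, and in replicate 2 for 133 of 272 (48.9%, 42.8 to 55.0%), against 44.1% of all. These shares lie near the background of all chromosomes.

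By their middles, the longest stretches without a series-wide peak lay in all 3 parts, although that of the right arm began in the centre. The longest, 232710 bp, began right after the first peak of the chromosome and ran to position 232925, and replicate 1 alone had a peak centred in it, with a score of 56.3. The next, 201441 bp at 7155827 to 7357267, lay inside the window with the most peaks. Gaps of 187025 bp at 9144070 to 9331094, of 181212 bp at 8447091 to 8628302 and of 165297 bp at 668539 to 833835 followed. No replicate peak was centred in these 4.

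At the left tip of the chromosome the first peak began at position 1 in all 3 lists and was 215 bp wide among the series-wide peaks (score 8.60). It was 242 bp wide in replicate 1 (score 572), against 213 bp in replicate 2 (score 260). In replicate 1 it ranked 17 on III. The last series-wide peak ended at 13783731, which is also the base taken as the end of the chromosome, so its place at the end follows from that choice. The last replicate peaks ended 1914 bp before it in replicate 1 and 7202 bp before it in replicate 2. This series-wide peak had a score of 20.9, the highest of the peaks over neither replicate list. It closed a run of 6 peaks from 13775615 on, in which replicate 1 had 2 peaks and replicate 2 had 1. Input signal at these peaks was not analysed here.

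Dense runs were defined as 5 or more peaks in a row with at most 5 kb between neighbours. The series-wide list had 10 of them on III with 69 peaks (12.6%, 9.93 to 15.7%), where 11.0% of all nuclear peaks lay in such runs. Replicate 1 had 11 of its 245 peaks in such runs (4.49%, 2.26 to 7.89%), against 10.1% of all, and replicate 2 had 15 of 272 (5.51%, 3.12 to 8.93%), against 4.98% of all. The 10 series-wide runs took up 0.716% of the chromosome, with 3 in the left arm, 3 in the right arm and 4 in the centre. Their peaks scored low, with a median of 5.27, against 7.58 for the 479 peaks outside runs. Widths were alike, with medians of 258 bp inside and 266 bp outside. Peaks over both replicate lists made up 17.4% of those inside and 15.7% of those outside. With the upper 50% of nuclear peaks by score, 0 peaks of III lay in such runs, and with peaks under 1 kb apart merged first, 20 did.

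The largest run held 14 peaks within 19776 bp at 7406072 to 7425847, in the window with the most peaks of the chromosome. Their scores were between 1.55 and 6.87. Replicate 2 had 7 peaks in it, with scores of up to 227, and replicate 1 had 0. From the start of this run to the end of the wide peak at 7444326 to 7448094, a stretch of 42023 bp chosen after its values were seen, replicate 2 had 13 peaks and replicate 1 again 0. Replicate 2 on its own had a dense run there, of 10 peaks at 7416291 to 7434104.

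The next run was of another kind. Its 9 peaks at 6566860 to 6576869 covered 77.1% of the 10010 bp, separated by a median of 104.5 bp, and all 9 were overlapped by replicate 1. Replicate 1 had 6 peaks there, the widest being the 6036 bp peak named above, and replicate 2 had 5. It was the one run of III present as a dense run in all 3 lists. The third, of 8 peaks at 11597736 to 11609141 in the right arm, had a single replicate 1 peak of 1012 bp (score 533) and none of replicate 2, and 6 of its 8 peaks lay over neither list. The fourth, of 7 peaks at 12608101 to 12616375, had 2 peaks of replicate 1 and 3 of replicate 2.

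**Figure D5:**
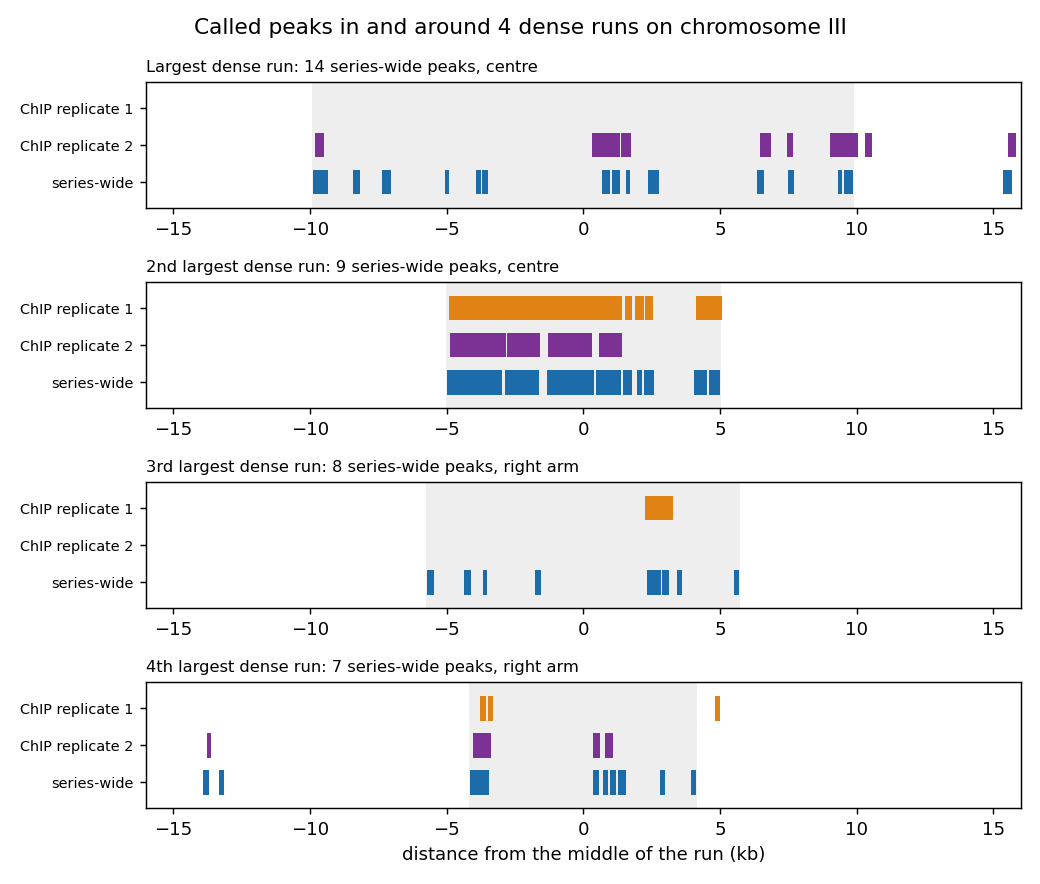
Called peaks of the 3 lists (bars) in and around the 4 dense runs of chromosome III with the most series-wide peaks, as distance in kb from the middle of each run, with the run shaded. The first run has 7 replicate 2 peaks and 0 of replicate 1, and in the second a 6036 bp replicate 1 peak stands over several shorter peaks of the other lists.

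The remaining runs had 5 peaks each apart from the last one of the chromosome, described above. At 1017629 to 1020410 in the left arm 5 peaks lay within 2782 bp, and all were overlapped by replicate 2 and 0 by replicate 1. A 1608 bp peak of replicate 2 (score 528) overlapped 4 of them, the fourth one in part only. At 6998121 to 7001265 replicate 1 overlapped 4 of the 5 and replicate 2 the other one. At 7594603 to 7604584 replicate 1 had 4 peaks and replicate 2 had 2. The runs at 3447924 to 3460338 and 3854889 to 3867700 in the left arm held peaks of higher score, up to 112 and 57.0, at a wider median spacing of 2886 and 2562 bp. Replicate 2 scores there reached 1400 and 552, and replicate 1 scores 135 and 377.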

How the data were processed

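The submitters' processing notes name BWA, with no version, and the build ce10. Coordinates are on WormBase WS220, per the file headers, and 1-based. Per the source field of the files, MACS v2 made the series-wide list and MACS each replicate list. The sources used here do not state how the libraries were joined or which input was used. The deposited score of each peak has no stated scale. Scores of the series-wide and the replicate lists are printed side by side at single sites, but their sizes are not comparable. Relations between these lists were measured only by rank. Start and end are other deposited values. Read depth is unknown, so no count test was possible.

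Overlap meant at least 1 bp. Gaps were the bases between neighbouring peaks. The length of III was taken as 13783731 bp, its last listed base, and other chromosomes likewise. Peaks were assigned to parts and windows by their middles. Shares carry exact (Clopper-Pearson) 95% intervals. No chance test was run. Functions were tested on simulated lists. Python 3.11.15, pandas 2.3.3, numpy 2.4.6, scipy 1.17.1 and matplotlib 3.10.9 were used.

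Named regions were the 10 highest-scoring and the 10 widest series-wide peaks, the 10 largest dense runs, the 5 longest gaps, the 5 highest peaks of each replicate list, the highest of each part and the first and last peak, while unpartnered peaks and the 42023 bp stretch were picked after their values were seen. Members and lists were chosen with earlier results of these data known. Alternatives changed list, overlap, borders, window, run gap, merging and score limit. Gene annotation was not used here, since the table at hand is of another build (WBcel235), and no sequence was read.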

Additional observations from a re-analysis of the deposited data

How the results depend on the processing

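No paired analysis was possible because the ChIP and input libraries share replicate numbers but no input list was analysed, and no result comes from a test. Of 55 alternative values for 11 results, 19 stayed within the spread of the 2 replicate lists, the binomial interval or 1.5 times the count, 31 moved further and 5 changed direction, and the cause was not tested. With either replicate list alone in place of the series-wide list, peaks per Mb were 17.8 to 19.7, the covered share 0.743 to 1.03%, the ratio of arms to centre 0.759 to 1.05, that of left to right arm 1.08 to 1.19, the median width 299 to 436 bp, the share with a neighbour within 10 kb 48.9 to 57.6%, and the peaks in dense runs 11 to 15. With the upper 50% of peaks by score these were 20.5 peaks per Mb, 0.899% covered, a left to right ratio of 0.978, 44.2% with a neighbour and 0 peaks in runs. Fewer peaks alone make runs rarer. With peaks over both replicate lists they were 6.31 per Mb, 0.390%, a left to right ratio of 1.16, 469 bp, 28.7% and 0. Merging peaks under 1 kb apart gave 33.3 per Mb, 55.1% and 20 peaks in runs. A gap of at most 2 kb left 31 peaks in runs, windows of 5 and 20 kb gave 52.6 and 82.5% with a neighbour. The left to right ratio was 0.699 with narrower arms and a wider centre, 0.787 with borders at 4 and 10 Mb and 1.10 by covered bases, so its direction was not stable. The ratio of arms to centre stayed below 1 except with the replicate 1 list alone. Overlap of 50% of both peaks lowered the shares to 10.2% for both lists, 24.5% of replicate 1 and 22.1% of replicate 2. Without pairs scoring 3100 or more the rho of paired scores was 0.31.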

Other observations

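A single replicate peak overlapped 2 or more series-wide peaks in 13 cases in replicate 1 and 15 in replicate 2, with up to 4 each. Replicate 1 had a further dense run of 5 peaks at 1120563 to 1123851 in the left arm, with scores of up to 310, where the series-wide list had 2 peaks.

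Higher-scoring peaks were more often overlapped by both replicate lists. With the 548 peaks divided by score into 5 groups of nearly equal size, 44 of 110 (40.0%, 30.8 to 49.8%) in the highest group were overlapped by both replicate lists, against 7 of 110 (6.36%, 2.60 to 12.7%) in the lowest. Median widths of these groups were 385 and 199.5 bp. A wider peak meets the overlap rule more easily and the lists may share reads, so score and overlap may not be independent. In the highest group 1 of 110 peaks lay over neither list, the last peak of the chromosome, against 70 of 110 in the lowest.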
